A study of Sus scrofa with 36 samples.

Results

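The genes described here are the collagen chain genes and a list of 38 genes, measured in pig thyroid glands with 1-colour Agilent arrays. The list is mainly of genes for matrix proteins, with protease and inhibitor genes and PDGFRA, the gene of a growth factor receptor. A probe, the 60-base oligonucleotide that reports 1 transcript on the array, was taken when its gene name began with COL and a digit, equalled a listed gene or stood in round brackets in its description. The search found 182 probes of 63 genes. Of these, 165 probes of 56 genes were among the 46097 probes with deposited values, which carry 33125 distinct names. The 56 genes include 32 collagen chain genes and 36 of the 38 listed genes, some of which are collagens. COL4A3BP was caught by its letters alone, since it encodes a ceramide transfer protein and not a collagen. The genes with no deposited value were COL2A1, COL9A2, COL13A1, COL19A1, COL28A1, FBLN5 and THBS2.

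The glands came from 36 castrated male pigs of Creole (CR), Large White (LW) and the cross of these breeds (F1), counted below as 3 breeds. Each breed stood at 2 labelled temperatures, 24 °C (thermoneutral, TN) and 30 °C (heat stress, HS), with 6 pigs in each of the 6 groups. Where the labels give 30 °C, the growth protocol gives 32 °C for 5 days. TN pigs were slaughtered before the exposure and HS pigs after it, so heat and the time of slaughter, with the pig's age at it, cannot be told apart. Each breed stands on pigs of a few families, and the labels give no litter, sire, pen or day, so pigs were treated as independent and a breed effect and a family effect cannot be told apart.

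The extracellular matrix is the protein scaffold between cells. Collagens are triple helices in which glycine returns at a fixed short spacing along the chain, and the chains of types I, III and V form the fibrils of connective tissue, while type IV chains and laminins build the basement membrane on which thyroid follicles and capillaries rest. In a gland, most fibrillar collagen is made by fibroblasts of the capsule and septa. In bulk tissue, fewer cells of a type and less RNA per cell cannot be told apart, and this holds for each result below.

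The arrays had 72.8% to 80.3% of their probes well above background and 0 saturated spots. TG, the gene of thyroglobulin, read 18.14 to 19.09 on the deposited log2 scale in all 36 pigs, and PAX8, a transcription factor of follicular cells, read 10.95 to 12.04. All matrix levels below are log2 values of the brightest probe of a gene, that is the one with the highest mean over all arrays. Differences are log2 differences, and the error is the SE of the limma model unless SD is written. Of the 165 matrix probes, 156 were well above background on all 36 arrays and the other 9 on at least 19. A level cannot be set against that of another gene, because probes differ in brightness.

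Matrix genes varied widely between pigs of the same group. The SD within groups had a median of 0.333 over the 56 genes, each read by its brightest probe, against 0.177 over all probes. Of the 56 genes 47 lay above the latter. All probes include dim ones, and the sets were not matched for brightness. The widest was FN1, the gene of fibronectin, an adhesive glycoprotein that links cells to collagen, with an SD of 0.72 and a range from 9.84 to 13.28, which is 10.9-fold. Next came COL3A1 with an SD of 0.66 and COL1A1 with 0.64, the chains of the fibrils of types III and I. TNC, a matricellular glycoprotein, spanned 9.74-fold and ELN, the elastin gene, 8.18-fold.

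One pig, CR_30 replicate 6, stood apart. It was the highest of its group in 36 of the 56 genes and the lowest in 3, with a median excess of 0.66 over the median of the other 5 pigs. Over all probes it was highest in 16.6% and lowest in 18.0%, with a median of -0.01. Its COL1A1 value was 15.35, where the other 5 pigs lay between 12.71 and 13.44. FN1 read 13.28 in this pig and at most 10.79 in the others. For ELN the values were 13.84 and at most 11.84. SPARC, a collagen-binding glycoprotein, read 17.40 against at most 16.48, and COL3A1 read 15.71 against at most 13.80. None of these 5 genes overlapped between this pig and the rest of its group. The array of this pig had 80.3% of its probes well above background, the top of the range over the arrays.

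The excess of CR_30 replicate 6 reached 1.15 at the median of the 9 fibrillar collagens, 0.90 for the 6 adhesive and matricellular glycoproteins and 0.14 for the 18 basement membrane genes. Markers of some cell types were also high in this pig. Of 11 fibroblast markers 9 were highest in this pig, with a median excess of 0.70, of 8 smooth muscle and pericyte markers 7 (0.55), of 8 adipocyte markers 6 (0.51), of 7 endothelial markers 2 (0.17) and of 8 follicular cell markers 2 (0.14). Of 9 skeletal muscle markers 1 was highest (-0.02), of 8 cartilage markers 2 (0.17) and of 5 bone markers 3 (0.06). Of 7 leukocyte markers 2 were highest (0.19) and of 4 erythroid markers 0 (-0.01). The fibroblast list holds PDGFRA and the cartilage list COL9A1 and COL11A2, which are also among the 56 genes. The part of these cell types in the result was not tested. In the other groups, too, a single pig led many matrix genes. LW_24 replicate 2 was highest of its group in 31 of the 56, F1_24 replicate 4 in 28, CR_24 replicate 6 in 25, LW_30 replicate 3 in 24 and F1_30 replicate 1 in 21. For these pigs the share of all probes was not taken, so whether their lead is particular to matrix genes cannot be told.

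**Figure D1:**
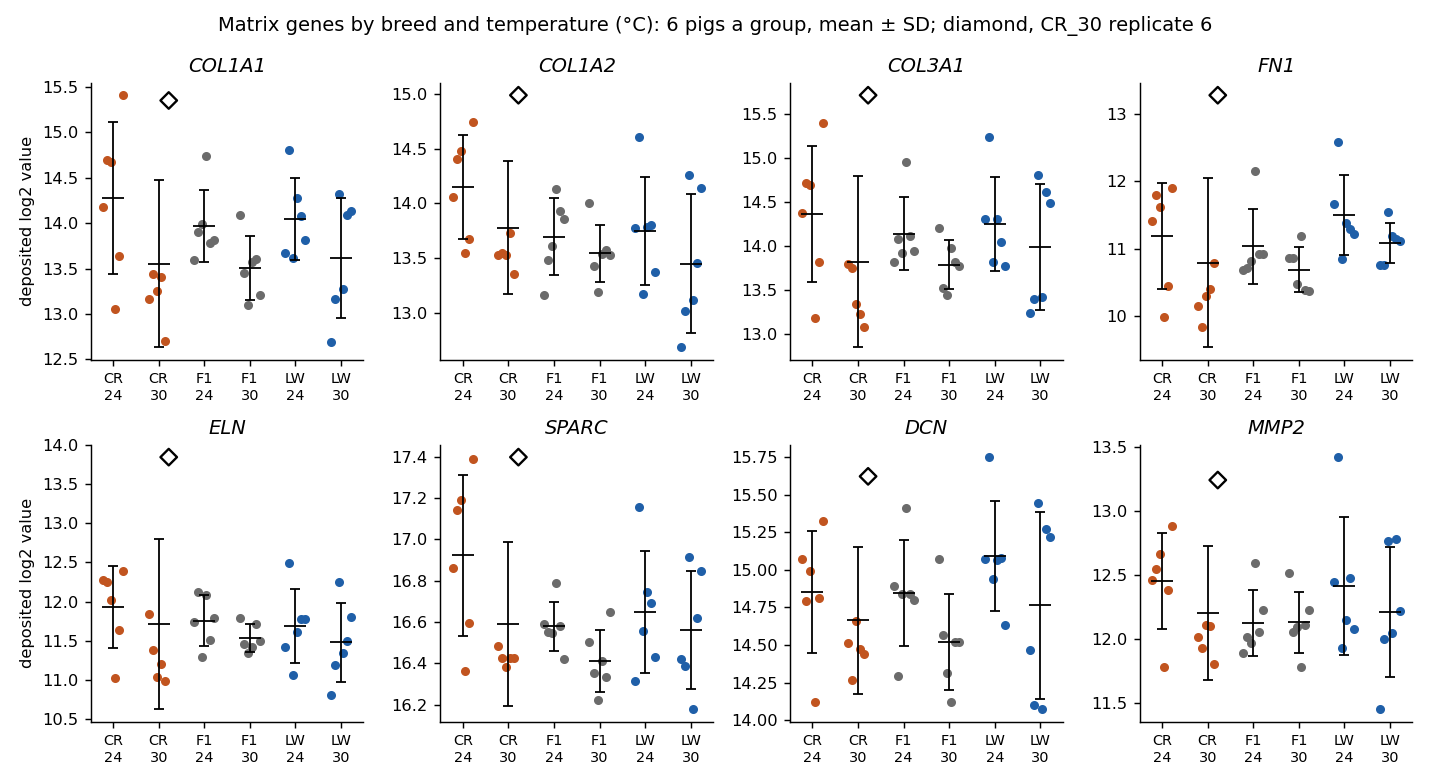
Deposited log2 values of 8 matrix genes (vertical axes) in the 6 groups of 6 pigs (horizontal axis, breed and labelled temperature in °C), with 1 point per pig and bars for the mean ± SD. The diamond marks CR_30 replicate 6, which lies above the other 5 pigs of its group in each panel, for COL1A1 at 15.35 against at most 13.44.

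The first comparison asked whether the matrix genes differed between HS and TN pigs. No matrix gene was differentially expressed at an adjusted p-value under 0.05, over the breeds or within a breed. Over the breeds 0 of the 56 genes and 0 of the 165 probes passed limma's test, beside 1.18% of all probes. At an unadjusted p under 0.05 were 8 genes (14.3%) and 46 of the 165 probes, beside 9.73% of all probes. Some genes have many probes, which are not independent. The values leaned to one side, as 43 of the 56 genes were lower in HS pigs, with a median of -0.10, where 44.3% of all probes were lower and their median was 0.01. These shares describe the lists, and matrix genes are not independent of each other.

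Of the fibrillar collagens, COL1A1 read 13.06 to 15.41 (median 13.95) in the 18 TN pigs and 12.69 to 15.35 (median 13.43) in the 18 HS pigs. The groups overlapped over nearly their whole range. The difference was -0.54 ± 0.20 (adjusted p = 0.271 by limma). COL1A2, the partner chain of type I collagen, read 13.16 to 14.74 (median 13.79) in TN and 12.68 to 14.99 (median 13.53) in HS pigs, a difference of -0.28 ± 0.15 (adjusted p = 0.591). For COL3A1 the difference was -0.38 ± 0.20 (adjusted p = 0.573), with medians of 14.10 and 13.76. Over the 9 measured fibrillar chains the median difference was -0.21, and 8 of them were lower.

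Basement membrane genes showed less of a lean, with a median of -0.02 over 18 genes, of which 12 were lower. COL4A1 and COL4A2 encode the chains that form the most widespread type IV collagen. COL4A1 read 11.05 to 12.03 (median 11.52) in TN pigs and 10.92 to 11.86 (median 11.39) in HS pigs. The difference was -0.17 ± 0.08 (adjusted p = 0.458). The second COL4A1 probe differed by 0.04 ± 0.07 (adjusted p = 0.922) and the mean of both probes by -0.06. The difference of COL4A2 was -0.04 ± 0.09 (adjusted p = 0.962). Of type VI collagen, which forms beaded filaments around cells, COL6A1 differed by -0.12 ± 0.10 and COL6A3 by -0.28 ± 0.16, with adjusted p-values of 0.812 and 0.628.

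Among the adhesive and matricellular glycoproteins, 6 of 6 were lower in HS pigs at a median of -0.20, and 0 were called. FN1 read 9.98 to 12.58 (median 11.25) in TN pigs and 9.84 to 13.28 (median 10.77) in HS pigs, with a difference of -0.39 ± 0.22 (adjusted p = 0.612). SPARC differed by -0.20 ± 0.09 (adjusted p = 0.486) and POSTN, the periostin gene, by -0.32 ± 0.17 (adjusted p = 0.581). The 4 proteoglycan genes had a median of -0.22, with LUM at 0.01 by its brightest probe. Another 7 LUM probes read -0.29 to -0.39 at unadjusted p-values of 0.0062 to 0.0302, and none was called (adjusted p of at least 0.214). DCN, whose product decorin binds and spaces collagen fibrils, read 14.12 to 15.75 (median 14.91) in TN and 14.07 to 15.62 (median 14.51) in HS pigs, a difference of -0.28 ± 0.14 (adjusted p = 0.499).

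The smallest adjusted p of the 56 genes belonged to VCAN, the gene of the large proteoglycan versican, which was named after its values were seen. Its values were 9.48 to 10.62 (median 10.12) in TN pigs and 8.48 to 10.28 (median 9.89) in HS pigs. The difference was -0.39 ± 0.11, with an adjusted p of 0.0983. Matrix turnover genes differed less. MMP2, a gelatinase, read -0.15 ± 0.13 (adjusted p = 0.811) and TIMP1, an inhibitor of such proteases, 0.04 ± 0.11 (adjusted p = 0.965) as differences, while ELN differed by -0.22 ± 0.18 (adjusted p = 0.794).

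The differences were also taken within slides 1 to 4, which held all 6 groups. There COL1A1 differed by -0.90 to -0.37, COL3A1 by -0.76 to -0.25, FN1 by -0.88 to -0.04, DCN by -0.47 to -0.34 and VCAN by -0.61 to -0.12, and each of these was lower in HS pigs on 4 of 4 slides. COL4A1 and COL4A2 were lower on 3 of 4, and TIMP1 was higher on 1 of 4. CR_30 replicate 6 lay on slide 5, which did not hold all groups.

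Within the breeds, 0 of 56 genes were called in CR (0.375% of all probes), in F1 (0.377%) and in LW (0.0%, where limma called 0 probes and 1844 had an unadjusted p under 0.05). The median difference was -0.19 in CR with 44 of 56 genes lower (46.7% of all probes), -0.05 in F1 with 35 lower (48.0% of all probes) and -0.05 in LW with 38 lower (46.3% of all probes). At an unadjusted p under 0.05 were 6, 1 and 3 genes and 10, 8 and 11 of the 165 matrix probes, beside 5.81%, 10.6% and 4.0% of all probes. The test of breed by temperature interaction called 0 of 56 genes and 0.0% of all probes, with 2 matrix genes (COL4A2 and COL5A3, named after their values were seen) and 2146 probes (4.66%) at an unadjusted p under 0.05, so a difference in heat response between breeds was not shown. COL4A2 differed by -0.36 in CR, 0.20 in F1 and 0.05 in LW, and COL5A3, a minor chain of type V collagen, by -0.58, 0.09 and -0.32.

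The heat values in CR depended on CR_30 replicate 6. Without it, 24 of 56 genes had an unadjusted p under 0.05 within CR instead of 6, beside 3755 of the 46097 probes instead of 2677. The median went from -0.19 to -0.29 and that of the 9 fibrillar chains from -0.37 to -0.61. COL5A3 was then called, with a difference of -0.77 ± 0.16 (adjusted p = 0.0139), beside 0.423% of all probes. With that pig COL5A3 read 11.28 to 12.20 (median 11.60) in CR_24 and 10.77 to 11.95 (median 10.83) in CR_30, and the difference was -0.58 ± 0.18 (adjusted p = 0.363). COL1A1 within CR went from -0.72 ± 0.35 to -1.08 ± 0.31 (adjusted p = 0.859 and 0.177). Over the breeds 21 genes instead of 8 had an unadjusted p under 0.05, beside 4790 of the 46097 probes instead of 4485. FBN1, the fibrillin gene of elastic microfibrils, was called over the breeds at -0.35 ± 0.09 (adjusted p = 0.0405, beside 1.2% of all probes) instead of -0.28 ± 0.11 (adjusted p = 0.294). These counts were made without a pig chosen for its values.

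**Figure D2:**
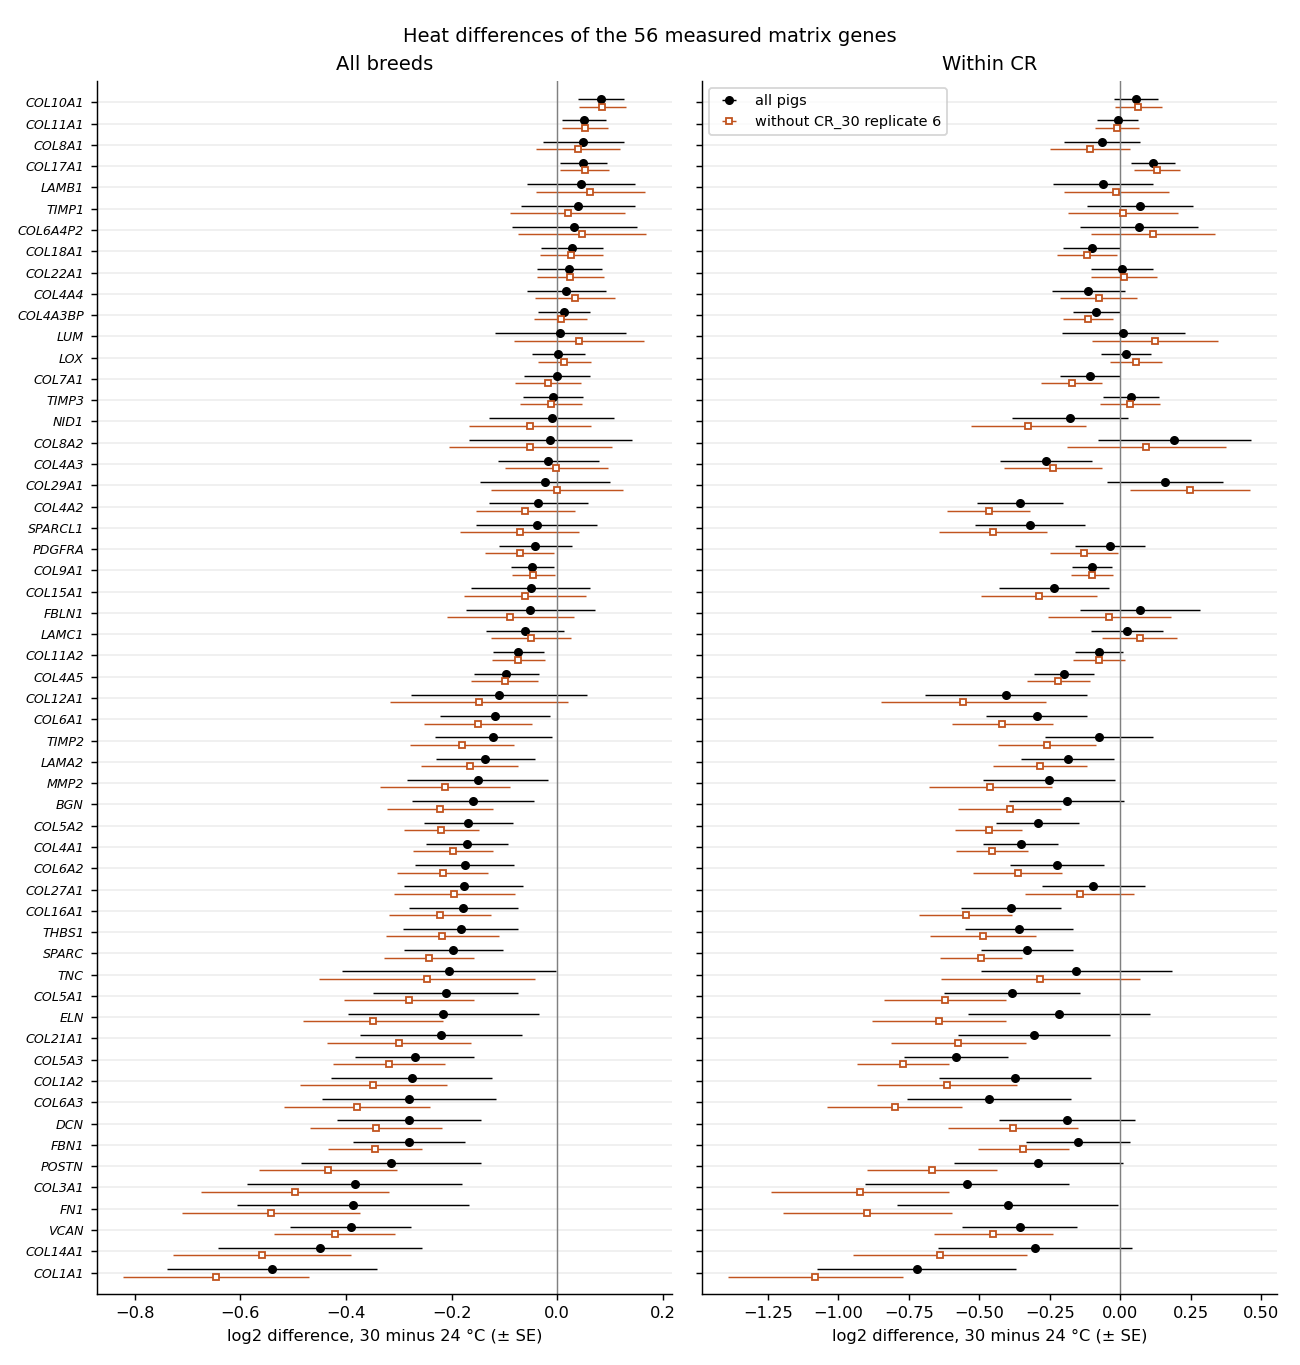
Log2 differences between 30 and 24 °C (horizontal axes, points with SE bars) of the 56 matrix genes, over all breeds on the left and within CR on the right, with all pigs (black) and without CR_30 replicate 6 (orange squares). Most points lie left of 0 (43 of 56 over the breeds), and leaving the pig out moved the fibrillar collagens within CR further left, as for COL1A1 from -0.72 to -1.08.

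The lists around the matrix genes gave few calls with heat. SERPINH1, the collagen-specific chaperone HSP47 of the endoplasmic reticulum and also a heat shock gene, fell by 0.49 ± 0.11 within CR (adjusted p = 0.0318), where it read 14.19 to 14.81 (median 14.43) in CR_24 and 13.68 to 14.45 (median 13.80) in CR_30. Without CR_30 replicate 6 the difference was -0.55 (adjusted p = 0.00916), but the call was lost when any 1 of 8 other pigs was left out (adjusted p up to 0.165). It was the 1 called of 21 genes of collagen biosynthesis and cross-linking in that comparison, beside 0.375% of all probes. Over the breeds 0 of the 21 were called, beside 1.18% of all probes. Of the 18 other proteases and inhibitors, the 18 genes of the TGF-beta pathway and the 18 matrix receptors, 0 were called over the breeds, with 4, 2 and 0 at an unadjusted p under 0.05. Fibroblast markers had a median of -0.11 (9 of 11 lower), smooth muscle and pericyte markers -0.05 (8 of 8 lower), adipocyte markers -0.34 (8 of 8 lower) and follicular cell markers 0.01 (4 of 8 lower), each with 0 genes called. Of the 4 erythroid markers HBB, a haemoglobin chain, was called lower in HS pigs, by -1.004 ± 0.19 (adjusted p = 0.00145), and its call held with each pig left out. Their part in the lean of the matrix genes was not tested.

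Read by their brightest probes, fibril-forming and type VI collagen genes, and FN1, varied together from pig to pig, while the laminin pair described further on did not. COL1A1 and COL3A1 had r = 0.95 and rho = 0.94 over the 36 pigs, COL1A1 and COL1A2 r = 0.88 and rho = 0.81, COL5A1 and COL5A2 r = 0.88 and rho = 0.78, COL6A1 and COL6A2 r = 0.81 and rho = 0.77, and COL1A1 and FN1 r = 0.81 and rho = 0.81. Each of these r has an adjusted permutation p of 1.71e-05 (2-sided, 100000 resamples, 12 pairs), and the raw p of 1e-05 is the smallest the test can give. Those of rho are 2e-05. Without the 2 pigs farthest from the median of the first gene, r was 0.93, 0.83, 0.82, 0.79 and 0.76. Within slides 1 to 4 the lowest r of these pairs was 0.69, for COL1A1 with FN1. All pairs share the RNA and the array of a pig. The 2 COL6A1 probes had r = 0.19 with each other after centring on the groups, so the type VI pairs depend on the probe used.

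Other pairs were looser. COL6A1 with COL6A3 had r = 0.71 and rho = 0.66 (adjusted p = 1.71e-05 and 3.43e-05), and MMP2 with its inhibitor TIMP2 r = 0.73 and rho = 0.68 (adjusted p = 1.71e-05 and 2e-05), without the 2 farthest pigs 0.70 and 0.62. COL4A1 and COL4A2, whose genes lie head to head and share a promoter in mammals, had only r = 0.50 and rho = 0.47 (adjusted p = 0.00293 and 0.00561), and 0.39 without the 2 farthest pigs. The 2 COL4A1 probes themselves had r = 0.42 with each other after centring on the groups. COL1A1 and TG had r = 0.28 and rho = 0.21 (adjusted p = 0.124 and 0.263). TG read 18.14 to 19.09, near the highest deposited value of 19.44, where values have little room to vary, so this pair is a weak contrast. Values centred on the group means gave 0.91 for COL1A1 with COL1A2, 0.95 with COL3A1 and 0.51 for COL4A1 with COL4A2.

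**Figure D3:**
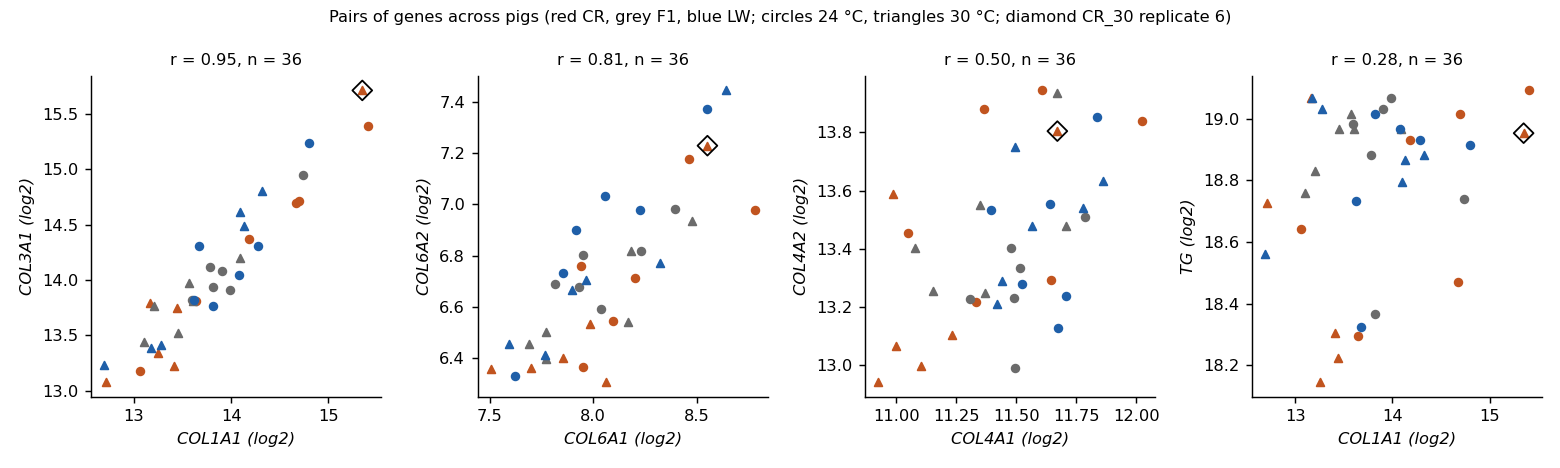
Deposited log2 values of 4 pairs of genes in the 36 pigs, with 1 point per pig, coloured by breed and shaped by temperature, and CR_30 replicate 6 framed by a diamond. The pigs fall along a line for COL1A1 with COL3A1 (r = 0.95) and for COL6A1 with COL6A2 (r = 0.81), less so for COL4A1 with COL4A2 (r = 0.50), and are scattered for COL1A1 with TG (r = 0.28).

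The second comparison asked how the matrix genes differed between the breeds, over both temperatures, with 12 pigs per breed. LW against CR called 6 of the 56 genes, 3 higher and 3 lower in LW, where 12.9% of all probes were called. At an unadjusted p under 0.05 were 13 genes (23.2%), beside 26.2% of all probes, and the median difference was -0.02. Higher in LW were LAMC1, COL27A1 and COL4A1, and lower were COL8A2, COL18A1 and COL4A3BP. LW against CR and F1 against CR share the CR pigs, so the comparisons are given side by side.

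LAMC1, the laminin gamma 1 chain found in most basement membrane laminins, had the smallest adjusted p of the 56 genes as read by their brightest probes. It read 10.04 to 11.07 (median 10.68) in CR, 10.65 to 11.36 (median 11.04) in F1 and 10.98 to 11.37 (median 11.17) in LW. Only 1 of the 12 CR pigs lay inside the range of LW. LAMC1 was higher in LW by 0.57 ± 0.09 (adjusted p = 5.02e-05) and in F1 by 0.43 ± 0.09 (adjusted p = 0.00603), and F1 and LW differed by -0.14 ± 0.09 (adjusted p = 0.55). LW was higher on 4 of 4 slides, by 0.26 to 0.89.

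The second LAMC1 probe did not show it. That probe read 9.13 to 9.69 (median 9.42) in CR and 9.30 to 9.85 (median 9.54) in LW, and differed by 0.13 ± 0.08 (adjusted p = 0.299). A probe with no gene name that shares a run of 58 bases with the called probe differed by 0.57 ± 0.09 (adjusted p = 2.12e-05). The sequences of both named probes are shown because the gene's result turns on which is used. The capitals in the called probe, of which the last 30 bases are given, mark AATAAA, the usual polyadenylation signal, a word that 11.1% of all deposited probes hold on the strand printed (5111 of 46097). The second probe is given whole and does not hold it.
LAMC1 called probe: gttttatctAATAAAgtctctcttccactt
LAMC1 second probe: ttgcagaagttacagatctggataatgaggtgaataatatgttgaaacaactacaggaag

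For LAMB1, the beta 1 chain that pairs with LAMC1, the probe found by the rule differed by -0.20 ± 0.12 (adjusted p = 0.321). Another pair of probes, which carry a transcript accession in place of the name and were tied to LAMB1 through it after the data were seen, were called lower in LW, by -0.42 ± 0.06 (adjusted p = 2.27e-05) and -0.47 ± 0.10 (adjusted p = 0.00173). The first of them read 12.15 to 12.68 (median 12.56) in CR, 11.85 to 12.43 (median 12.12) in F1 and 11.88 to 12.28 (median 12.03) in LW, with 10 of 12 CR pigs above the range of LW. Both were lower in LW on 4 of 4 slides, and both were lower in F1 than in CR, by -0.38 ± 0.06 (adjusted p = 0.000639) and -0.40 ± 0.10 (adjusted p = 0.0232). LAMB1 and LAMC1, as read by the brightest probes of the rule, had r = -0.12 and rho = -0.18 over the pigs (adjusted p = 0.552 and 0.314). Centred on the group means, r was 0.13. The LAMB1 probes tied by accession had r = -0.52 and -0.50 with the called LAMC1 probe. With the second LAMC1 probe they had -0.18 and -0.20. LAMC1 and NID1, the nidogen that binds the gamma 1 chain, had r = -0.56 and rho = -0.48 (adjusted p = 0.0006 and 0.00477), but the NID1 probe has the same 60 bases as a probe named LYST, and with the second LAMC1 probe r was -0.01.

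Of the other basement membrane genes, COL18A1, whose product carries endostatin at its end, read 15.34 to 15.94 (median 15.59) in CR and 14.98 to 15.60 (median 15.36) in LW. It was lower in LW by -0.24 ± 0.07 (adjusted p = 0.0214), and 5 of 12 CR pigs lay above all LW pigs. A single probe read this gene. COL4A1 read 10.92 to 12.03 (median 11.28) in CR and 11.40 to 11.86 (median 11.60) in LW. All 12 LW pigs lay inside the range of CR, while 8 CR pigs lay below LW. The difference was 0.28 ± 0.10 (adjusted p = 0.0443), it was seen on 3 of 4 slides, and the call was lost when any 1 of 15 pigs was left out. LAMB2, a laminin chain outside the members, was higher in LW by 0.30 ± 0.09 (adjusted p = 0.017) and in F1 by 0.31 ± 0.09 (adjusted p = 0.033). In all, 4 of 18 basement membrane genes were called, 3 higher and 1 lower in LW, beside 12.9% of all probes.

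COL8A2, a chain of the short network-forming type VIII collagen, showed the largest difference between LW and CR of the 56 genes as read by their brightest probes. It read 7.49 to 8.94 (median 8.08) in CR, 7.59 to 8.43 (median 8.07) in F1 and 6.28 to 8.40 (median 7.24) in LW, and 9 of the 12 LW pigs lay below all CR pigs. COL8A2, read by a single probe, was lower in LW than in CR by -0.93 ± 0.19 (adjusted p = 0.000918). No other probe of the gene could be set beside this one. F1 exceeded LW by 0.87 ± 0.19 (adjusted p = 0.00826) and differed from CR by -0.06 ± 0.19 (adjusted p = 0.912). LW was lower than CR on 4 of 4 slides, by -1.23 to -0.03. It was the 1 matrix gene called between F1 and LW, beside 2.0% of all probes.

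The gene of the other type VIII chain, COL8A1, was read by 3 probes under the rule. Its brightest probe read 13.20 to 14.01 (median 13.79) in CR and 13.44 to 14.12 (median 13.81) in LW and differed by 0.11 ± 0.09 (adjusted p = 0.496). The probe that lies in the helix was called, with 8.31 to 9.08 (median 8.85) in CR and 8.61 to 9.51 (median 9.15) in LW, a difference of 0.36 ± 0.09 (adjusted p = 0.00606). A further probe, tied to COL8A1 by accession after the data were seen, was also called higher in LW than in CR, by 0.22 ± 0.07 (adjusted p = 0.0247). The collagen helix can be read in this probe and in the dimmer probe of COL4A1, which differed by 0.06 and was not called, and both are shown for that. The capitals mark codons of the form GGN, which encode glycine, at each ninth base. Runs of at least 6 such codons were searched on the strand printed and were found in 12 of the 46097 deposited probes (0.026%), 7 of them among the 79 probes of collagen chains.
COL8A1 helix probe: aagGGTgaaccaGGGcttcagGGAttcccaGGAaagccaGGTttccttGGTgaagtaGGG
COL4A1 helix probe: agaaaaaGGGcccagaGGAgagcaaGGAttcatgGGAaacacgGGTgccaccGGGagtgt

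COL27A1 was the 1 called gene of the 9 fibrillar collagens, beside 12.9% of all probes. It read 7.49 to 8.27 (median 8.04) in CR, 7.50 to 8.68 (median 8.05) in F1 and 7.72 to 9.09 (median 8.31) in LW, with 7 of the 12 LW pigs above all CR pigs. It was higher in LW by 0.47 ± 0.14 (adjusted p = 0.0192) on 4 of 4 slides, and its second probe was also called, at 0.44 ± 0.14 (adjusted p = 0.0357). The chains of the main fibrils were not called, with differences of -0.08 for COL1A1 and 0.03 for COL3A1. COL4A3BP was lower in LW by -0.22 ± 0.06 (adjusted p = 0.0106) on its brightest probe. Its second probe differed by -0.01 ± 0.05 (adjusted p = 0.939) and was not called. VCAN differed by 0.39 ± 0.14 (adjusted p = 0.0584, or 0.44 ± 0.14 and 0.0367 without CR_30 replicate 6) on its brightest probe and by 0.40 ± 0.11 (adjusted p = 0.00937) on its second one, which was called.

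**Figure D4:**
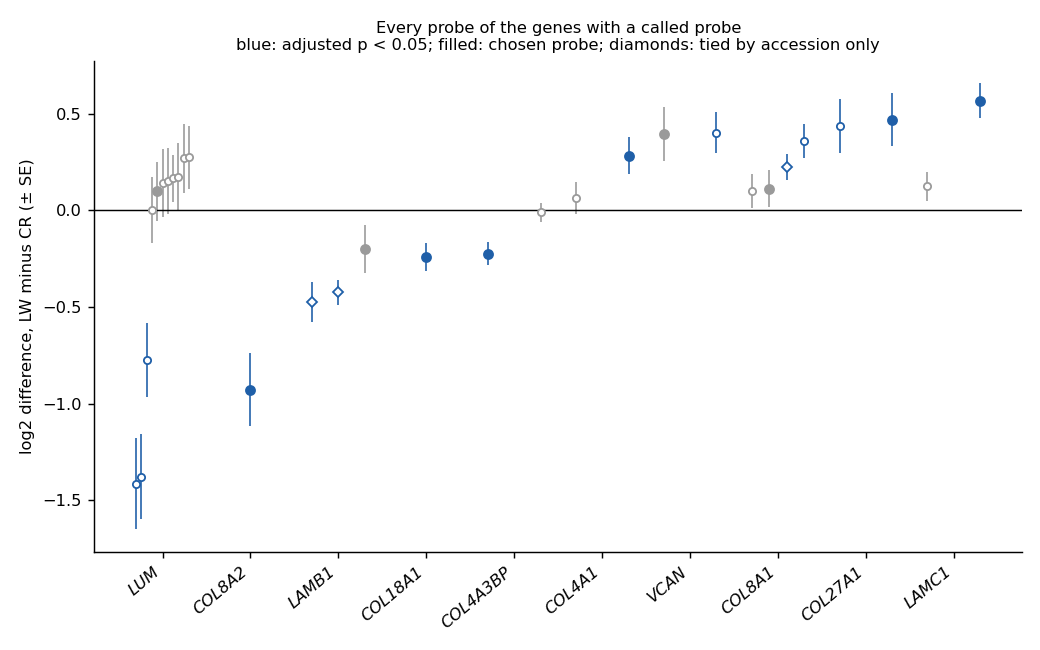
Log2 differences between LW and CR (vertical axis, points with SE bars) of the probes of 10 genes with a called probe, with called probes in blue, the brightest probe of each gene filled and probes tied by accession as diamonds. Probes of a gene differ in their call for LUM, LAMB1, COL4A3BP, COL4A1, VCAN, COL8A1 and LAMC1, and both probes of COL27A1 are called.

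LUM, the gene of lumican, a small proteoglycan that binds collagen fibrils, was read by 11 probes, of which 3 were called lower in LW and 8 were not, with differences of 0.00 to 0.27 and adjusted p-values of at least 0.29 for the latter. The first of the called probes read 8.53 to 10.16 (median 9.46) in CR and 7.63 to 9.11 (median 8.76) in LW, a difference of -0.77 ± 0.19 (adjusted p = 0.00561). The other pair read 8.05 to 10.05 (median 9.39) and 8.04 to 9.97 (median 9.27) in CR and 7.20 to 8.25 (median 7.97) and 7.17 to 8.21 (median 7.91) in LW. They differed by -1.41 ± 0.24 (adjusted p = 8.89e-05) and -1.38 ± 0.22 (adjusted p = 4.42e-05). For the second of these, A_72_P624127, only 1 of 12 CR pigs lay inside the range of LW. F1 was between, with medians of 8.24 and 8.26, and was lower than CR by -0.90 ± 0.24 (adjusted p = 0.0258) and -0.90 ± 0.22 (adjusted p = 0.0167). All 3 were lower in LW than in CR on 4 of 4 slides.

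The position column of the scanner files, which counts bases along the transcript sequence that a probe was designed on, places the called probes between neighbours that were not called. A_72_P573664 covers bases 1440 to 1499 and differed by 0.00 ± 0.17 between LW and CR. The called probes cover 1460 to 1519 (A_72_P583531) and 1465 to 1524 (A_72_P665036 and A_72_P624127), and A_72_P769870 covers 1529 to 1588 and differed by 0.17. The called probes share their first 40, 35 and 35 bases with the end of A_72_P573664, and have 20, 25 and 25 bases beyond it. These sequences are shown because the breed difference was found only in probes that read this stretch. The last 30 bases of the first 4 probes and the first 30 of A_72_P769870 are given, and the capitals mark the bases beyond A_72_P573664. The pair with the same first base differ from each other at 3 of 60 bases.
LUM A_72_P573664: acaaatacacagacacacacacacaccaaa
LUM A_72_P583531: acacaccaaaCAATGCTTTATTTGTAAATT
LUM A_72_P665036: ccaaaCAATGCTTTATTTGTAAATTTATGC
LUM A_72_P624127: ccaaaCAATGCTTTATTTGTAATTTATTGC
LUM A_72_P769870: ctacatctctactatcaaatgatgtacagt

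**Figure D5:**
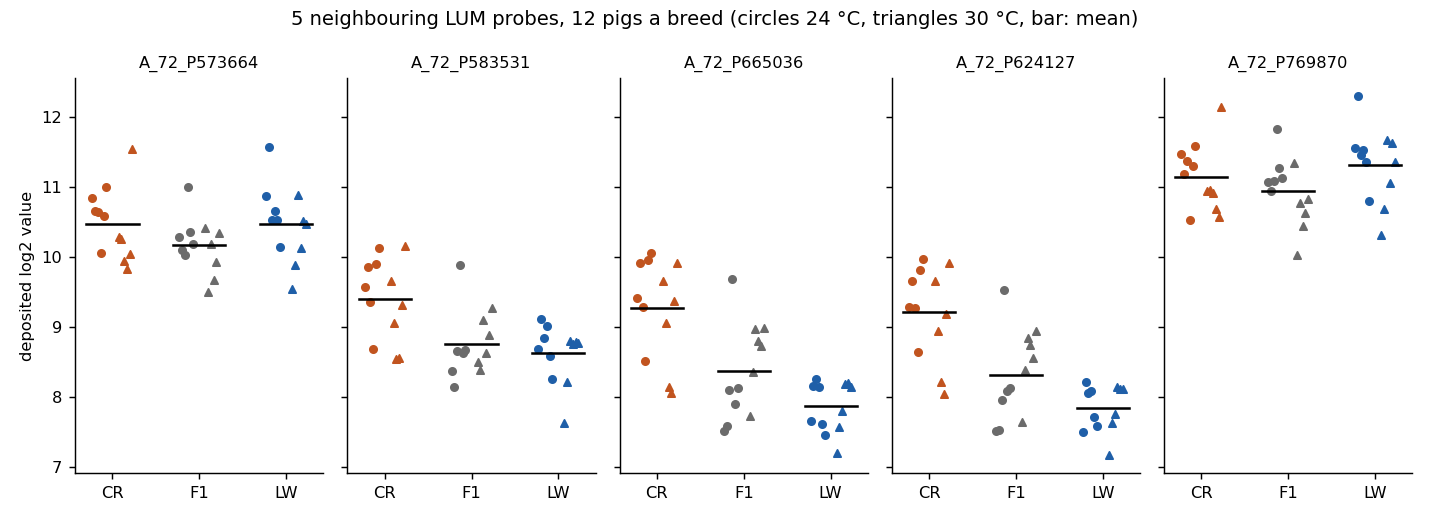
Deposited log2 values of 5 neighbouring LUM probes (panels, in the order of their first base) in the 12 pigs of each breed, with circles for 24 °C, triangles for 30 °C and a bar for the mean. The breeds overlap for the first and the last probe, while LW lies lower than CR in the 3 middle ones, for A_72_P665036 with medians of 7.97 and 9.39.

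The LUM probes also differed in how they followed DCN, another small proteoglycan gene, over the 36 pigs. Given as a description, r with DCN was 0.83 to 0.89 for 7 of the 8 uncalled probes, 0.41, 0.13 and 0.13 for the 3 called ones and -0.03 for the brightest, A_72_P065926, for which rho was -0.05 (adjusted p = 0.883 and 0.776). That brightest probe is the one by which LUM enters the counts above, and its median r with the other LUM probes was -0.05 after centring on the groups. Most genes had no such split. Of 36 genes with 2 or more probes, the median r between the brightest probe and the others was above 0.5 in 28 and under 0.2 in 4, LUM, LOX, COL10A1 and COL6A1, with 0.86 as the median over genes.

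The other breed comparisons gave few calls. F1 against CR called 1 of 56 genes, LAMC1, beside 3.38% of all probes, and 41 of the 56 were lower in F1 (50.7% of all probes) with a median of -0.06. At an unadjusted p under 0.05 were 6 genes, beside 17.2% of all probes. Without CR_30 replicate 6, 35 of the 56 were lower in F1 and the median was -0.02. Then 2 genes had an unadjusted p under 0.05, beside 7206 of the 46097 probes. By the brightest probes, F1 against LW called COL8A2 alone, with 3 genes at an unadjusted p under 0.05, beside 13.4% of all probes. Without CR_30 replicate 6 this count was 7, beside 6168 of the 46097 probes. The 3 COL8A1 probes found by the rule were lower in F1 than in LW by -0.27 to -0.30 and were not called (adjusted p of 0.0775 to 0.1), and the probe tied by accession was called at -0.32 ± 0.07 (adjusted p = 0.00617). Set against the mean of both breeds, F1 had 0 called genes, beside 0.449% of all probes, with 4 at an unadjusted p under 0.05 (10.4% of all probes), of which COL8A2 had the widest difference, 0.40 ± 0.16 (adjusted p = 0.351).

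Of the other lists of genes that build, modify or bind the matrix, LW against CR called 3 of 21 in collagen biosynthesis and cross-linking, 3 of 18 in the TGF-beta pathway, 2 of 18 matrix receptors and 1 of 18 other proteases and inhibitors, beside 12.9% of all probes, so these counts do not set the lists apart. P4HA2, a catalytic subunit of the enzyme that hydroxylates collagen prolines, read 10.39 to 11.11 (median 10.84) in CR, 10.77 to 11.69 (median 11.10) in F1 and 11.30 to 11.94 (median 11.53) in LW. CR and LW did not overlap, which held for 0.278% of all probes, and P4HA2 was higher in LW by 0.75 ± 0.10 (adjusted p = 1.46e-06). P4HB, the other subunit, was lower in LW by -0.22 ± 0.05 (adjusted p = 0.00451), and PPIB, a proline isomerase of the same pathway, by -0.32 ± 0.07 (adjusted p = 0.0022). In the TGF-beta pathway, CCN2 was higher by 0.91 ± 0.31 (adjusted p = 0.0476), and TGFB2 and LTBP2 were lower, by -0.29 ± 0.08 (adjusted p = 0.012) and -0.60 ± 0.19 (adjusted p = 0.031). The receptors called were the collagen receptor kinases, with DDR1 lower by -0.15 ± 0.05 (adjusted p = 0.0366) and DDR2 higher by 0.30 ± 0.10 (adjusted p = 0.0461). The calls of CCN2, DDR2, DDR1 and LTBP2 were lost when any 1 of 23, 20, 11 and 5 pigs was left out. ADAMTS4, an aggrecanase, was higher by 0.21 ± 0.06 (adjusted p = 0.0147).

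Markers of several cell types also differed between LW and CR, a comparison that called 12.9% of all probes. Adipocyte markers were lower in LW in 8 of 8 genes with a median of -0.70, and 5 were called, among them CIDEA at -1.36, ADIPOQ at -1.21, PLIN1 at -1.20 and CIDEC at -0.79. The fifth, LIPE at -0.35, lost its call when any 1 of 17 pigs was left out. Of 7 endothelial markers 4 were called higher in LW, with KDR, a receptor of vascular endothelial growth factor, at 0.73, PECAM1 at 0.35, TIE1 at 0.27 and CDH5 at 0.19. The CDH5 call was lost when any 1 of 9 pigs was left out. Of 8 smooth muscle and pericyte markers 3 were called higher, TAGLN at 0.35, MYH11 at 0.28 and ACTA2 at 0.22, and the MYH11 call was lost when any 1 of 13 pigs was left out. Fibroblast markers gave 0 calls of 11 with a median of -0.03, and follicular markers 0 of 8 with a median of 0.10. Of the cartilage markers, CNMD was called higher by 4.42 and ranged from 5.20 to 13.27 within CR alone, and COMP was called higher by 0.40. Without CR_30 replicate 6 the 8 cartilage markers had a median of 0.04, with 3 lower in LW. Cartilage collagen COL2A1 had no deposited value. The part of these cell types in the differences of LAMC1, COL8A2, COL18A1 and the other matrix genes was not tested.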

How the data were processed

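Arrays were 1-colour Agilent porcine arrays, 1 per pig. Per the file headers and the labels they were scanned and read with Agilent Feature Extraction 10.10.1.1. The authors took the median pixel intensity of each spot, scaled it between arrays by quantile normalization and deposited log2 values for the 46097 probes they kept as expressed. Quantile normalization gives all arrays 1 distribution, so a change shared by most genes would not be seen. Log2 values remade from the deposited scanner intensity differed from theirs by a median of 0.00556. Negative controls read 25 to 28 intensity units. Arrays have no read depth, and precision is limited by 6 pigs per group. No deposited column was left unused.

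Tests used limma 3.58.1 in R 4.3.3 on all 36 arrays (lmFit, contrasts.fit, eBayes), with terms for breed and temperature, or 6 group means for effects within breeds and the interaction. P-values were adjusted by Benjamini-Hochberg over the 46097 probes, and called means an adjusted p below 0.05. A gene is read from its brightest probe. Pearson r and Spearman rho were tested by permutation (scipy 1.17.1). The fit was checked on simulated data. Named were called genes, up to 10 in each direction, 14 genes whatever their values, and up to 4 called genes of each other list. The members, the lists of matrix genes and of cell markers, and the tests were chosen with earlier results of these data known. Background correction, the scanner's processed signal, the filter on dim probes, slide, place on the slide, variance model, probe choice and each pig were varied.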

Additional observations from a re-analysis of the deposited data

Results flagged for a closer look

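In each group of 6 pigs, the gap between the highest or lowest pig and its neighbour was set against the range of the group for 19 named genes, and ratios above the critical value of Dixon's test for 6 values, which chance passes in about 1 group in 20, were noted. This held for 18 of 114 groups, and the genes share pigs. All 10 cases in CR_30 were replicate 6, which was the highest pig. The ratio was 0.722 for COL1A1, 0.768 for COL1A2, 0.727 for COL3A1, 0.753 for COL6A3, 0.724 for FN1, 0.709 for DCN, 0.903 for SPARC, 0.789 for MMP2, 0.782 for POSTN and 0.702 for ELN. The gap was 1.91 for COL1A1, 2.49 for FN1 and 0.92 for SPARC on the log2 scale.

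F1_24 replicate 4 was the highest pig of its group for COL1A1 (ratio 0.655, gap 0.75), COL3A1 (0.739, 0.84), COL6A3 (0.637, 0.60) and FN1 (0.833, 1.22). LW_24 replicate 2 was highest for COL3A1 (0.632, 0.93) and MMP2 (0.63, 0.94). In LW_24, TIMP1 was highest in replicate 1 (0.663, 0.85) and COL27A1 lowest in replicate 5 (0.642), with 7.72 where the next pig read 8.60.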

How the results depend on the processing

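No paired analysis was possible because the labels give no replicate numbers that tie pigs of different groups. Counts of called matrix genes moved by over 1.5 times in few settings. With each pig left out in turn, heat over the breeds called 0 to 1 genes and heat within CR 0 to 1, and both 1s, FBN1 and COL5A3, came without CR_30 replicate 6. F1 against CR called 1 to 2 (COL4A3BP came without F1_30 replicate 4), F1 against LW 1 to 2 (COL8A1 came without LW_30 replicate 4) and LW against CR 5 to 7. Counting a gene when any probe is called gave 2 genes for F1 against CR. With probes tied to a gene by accession added, an alternative chosen after seeing the data, heat called 1 and F1 against CR 2 (LAMB1). The call with heat came from a probe tied to COL9A2. That probe shares a run of 50 bases with the reverse complement of the named probe, so its gene is uncertain.

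Of the named genes, COL4A1 lost its LW against CR call with slide as a fixed block (adjusted p = 0.0559), place on the slide (0.0543), the mean of its probes (0.143) and only LW and CR arrays (0.0663), and without any 1 of 15 pigs (0.0516 to 0.0859). With the mean of the probes COL4A3BP (-0.12, adjusted p = 0.095) and LUM (-0.21, adjusted p = 0.389) were not called. The cause was not tested. In the remaining settings run, apart from FBN1 and COL5A3 above and VCAN, called for LW against CR without CR_30 replicate 6 (adjusted p = 0.0367), the named matrix genes kept their side of the threshold. No called value changed direction, while TIMP1, not called with heat, went from 0.04 to -0.01 without F1_30 replicate 6, and LAMC1 and COL8A2 were called in all. Of 40 calls in the other lists, 27 held in every setting and leave-out, 13 were lost at least once and 0 reversed. SERPINH1 lost its call with the processed signal scaled to the 75th percentile (adjusted p = 0.0911) and with place on the slide (0.0788). For LW against CR, CCN2 lost its call without any 1 of 23 pigs, DDR2 20, LIPE 17, MYH11 13, DDR1 11, CDH5 9, ALPL 8 and LTBP2 5, and ACTA1 with the processed signal alone. For F1 against CR, LAMB2 and PPIB each lost theirs without any 1 of 6 pigs, and for F1 against LW LPL without any 1 of 3. In the pairs of genes, r without CR_30 replicate 6, chosen after seeing the data, was 0.94 for COL1A1 with COL3A1 and 0.77 for COL1A1 with FN1. Probes of 1 gene can differ in their call, and no genome was used to place them.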

Other observations

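COL9A2, a chain of a fibril-associated collagen known from cartilage, had no deposited value on its named probe, which was well above background on 3 of 36 arrays. A deposited probe tied to it by accession, with a mean level of 5.74, shares a run of 50 bases with the reverse complement of that probe, and at most 8 with the probe itself. The probe tied by accession was lower in HS pigs by -0.28 ± 0.07 (adjusted p = 0.0229 by limma). Probes that overlap in this way read opposite strands, so whether this difference belongs to COL9A2 cannot be told. FBLN5, also without a deposited value on its named probe, was read by a probe tied through its accession that gave -0.21 ± 0.12 with heat (adjusted p = 0.596) and -0.03 ± 0.14 for LW against CR (adjusted p = 0.854). Of the 17 matrix probes with no deposited value, those of COL13A1 and FBLN5 were well above background on 27 and 30 arrays, and the other 15 on at most 11. COL2A1, the main collagen of cartilage, was at background on all 36 arrays with 0 arrays above it.

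LW against CR called 12.9% of all probes. Of the marker lists whose calls were not counted so far for it, it called 1 of 9 skeletal muscle markers (ACTA1, 0.22) and 2 of 8 cartilage markers (CNMD, and COMP at 0.40). It also called 3 of 5 bone markers (ALPL 0.68, SPP1 0.31, DMP1 -0.32), 0 of 7 leukocyte markers and 0 of 4 erythroid markers. Heat over the breeds called 0 genes of these lists except HBB. F1 against LW called 5 of 8 adipocyte markers higher in F1, beside 2.0% of all probes, with a median of 1.00 over the list.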
